A study of Rattus norvegicus with 40 samples.

Results

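The genes described here belong by name to families of the motile cilium. They were followed in 4 regions of the rat brain (Rattus norvegicus) 12 months after blast or sham exposure. They were chosen by name, as all genes of the hippocampus table whose name starts with Dnah, Dnai, Rsph, Cfap, Tekt or Ift and a number. The choice was made with earlier results of these data known. The rule matched 65 genes, of 25958 gene identifiers in the 4 tables together. Of these, 28 were Cfap, 13 Ift, 10 Dnah, 7 Rsph, 5 Tekt and 2 Dnai genes. A gene was kept in a region when its read counts over the 10 libraries of that region summed to 10 or more, which held for 62 genes in the hippocampus, 62 in the amygdala, 61 in the anterior cortex and 61 in the cerebellum. Of the members, 61 were kept in all 4 regions, and Cfap58l1, Cfap97d1, Cfap58 and Rsph4a missed the minimum in at least 1 region.

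Total RNA was sequenced from hippocampus, amygdala, anterior cortex and cerebellum, with 5 libraries of blast-exposed and 5 of sham rats in each region, 40 in all. Strain, sex, age and the strength of the blast were not given in the sources used here. Libraries are named by region and title number, with Hip for hippocampus, Amy for amygdala, AC for anterior cortex and Cer for cerebellum. One sham column of the amygdala could be tied to its group but not to a title, and it is called the unnumbered library. The labels do not say that libraries come from separate animals, so p-values measure only the spread between these libraries.

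A motile cilium beats because dynein motors on its microtubule doublets make neighbouring doublets slide. Radial spokes and a central pair of microtubules govern that sliding, and tektins and other filament proteins line the doublets from within. Intraflagellar transport (IFT) particles carry the parts to the growing tip. In the brain, motile cilia stand in tufts on ependymal cells, which line the ventricles and move cerebrospinal fluid, and cells of the choroid plexus carry tufts as well. Neurons and astrocytes bear a single primary cilium that also needs intraflagellar transport but has no dynein arms or spokes. The 5 families other than Ift are called the axoneme families below. The label groups genes by name and does not say that each member is limited to motile cilia.

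The promoters of several members carry motifs of the RFX and forkhead factors, which are known regulators of ciliary genes. The part of these motifs in the levels given below was not tested. RefSeq promoter windows of 300 bases (250 before to 50 after the start, build GRCr8) were matched by symbol for 53 of 65 members and comprised 78 windows, since some genes have several starts. On both strands the full RFX X-box was searched as GTTNCC followed by GGNAAC after 2 or 3 free bases, its single arm as GTTGCC, which lies within an X-box whose open base is G, and the forkhead site as TGTTTAC. The single arm stood in 22 of 78 member windows (28.2%), against 12.2% of all 33469 windows. The forkhead site stood in 4 member windows (5.13%), against 3.78% of all windows. Each X-box form stood in 1 member window, that of Cfap298, against 0.472% of all windows for the form with 2 free bases and 0.0747% for that with 3. In the stretches below, all upstream of the start and written in the direction of the gene, capitals mark the X-boxes of Cfap298, the forkhead site of Cfap43 and the single arms of the rest. GGCAAC and GTAAACA are the single arm and the forkhead site read on the other strand. Cfap298 lies at chr11:43677430-43677632 (minus strand), Cfap43 at chr1:256653692-256653758 (minus), Cfap44 at chr11:69789906-69789944 (minus), Cfap161 at chr1:147177843-147177908 (minus), Cfap99 at chr14:80685181-80685246 (minus), Dnai2 at chr10:100258937-100259002 (plus) and Ift88 at chr15:35688923-35688986 (plus).
Cfap298: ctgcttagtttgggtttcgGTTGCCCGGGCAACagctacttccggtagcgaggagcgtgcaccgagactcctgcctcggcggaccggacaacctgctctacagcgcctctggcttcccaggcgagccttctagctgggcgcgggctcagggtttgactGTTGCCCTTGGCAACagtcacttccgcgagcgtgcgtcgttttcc
Cfap43: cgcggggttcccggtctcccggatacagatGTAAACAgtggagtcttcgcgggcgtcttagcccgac
Cfap44: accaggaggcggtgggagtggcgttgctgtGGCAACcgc
Cfap161: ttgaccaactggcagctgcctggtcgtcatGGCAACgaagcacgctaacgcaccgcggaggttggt
Cfap99: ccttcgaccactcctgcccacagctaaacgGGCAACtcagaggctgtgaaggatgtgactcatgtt
Dnai2: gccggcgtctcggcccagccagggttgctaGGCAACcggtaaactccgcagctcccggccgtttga
Ift88: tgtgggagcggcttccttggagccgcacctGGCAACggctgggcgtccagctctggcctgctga
A match describes the letters only and does not show that a factor binds there.

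Library totals ran from 11268097 to 37128383 counts. Levels are CPM (library-scaled counts, normalized by TMM). Fold changes are given as the log2 ratio of blast to sham from edgeR with their standard error (SE). Marker lists of hippocampus, cortex and cerebellum summed highest in their own region, whereas the amygdala list summed to 84.5 ± 7.4 CPM in sham amygdala and 107 ± 4.3 CPM in sham hippocampus (SD, n = 5 each). The choroid plexus markers set 6 libraries apart. Transthyretin (Ttr), the main secreted protein of the choroid plexus, stood at 5942 and 6551 CPM in blast hippocampus libraries Hip_666 and Hip_8 and at 4022 CPM in sham hippocampus library Hip_11, against 8.44 to 179 CPM in the other 7 hippocampus libraries. In the cerebellum it stood at 2226 and 1697 CPM in blast libraries Cer_22 and Cer_8 and at 992 CPM in sham library Cer_33, against 6.95 to 82.0 CPM in the other 7. They are called the choroid-rich libraries. Counts of members, medians of the larger families and fold changes of the genes described in full in these 2 regions are also given without them. In bulk tissue, fewer ciliated cells and less RNA per cell cannot be told apart.

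Sham libraries first show where each gene was read. Over the regions, 52 of 61 members differed in level between sham groups at an adjusted p under 0.05 (edgeR, Benjamini-Hochberg), beside 78.3% of all 16378 genes tested. Without the 6 choroid-rich libraries 49 members did, beside 12391 of 16683 genes. The axoneme families varied far more than the transport genes, with a median ratio of highest to lowest regional mean of 3.76 over 48 axoneme members and 1.48 over 13 Ift members. Of the axoneme members, 24 were highest in the hippocampus, 14 in the amygdala, 8 in the cerebellum and 2 in the anterior cortex. Of the Ift members, 6 were highest in the cerebellum and 4 in the hippocampus. Without the choroid-rich libraries, 18 of the 48 axoneme members were highest in the hippocampus and 20 in the amygdala.

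Most axoneme genes were higher in hippocampus and amygdala than in cortex and cerebellum. Hippocampus over cerebellum had a median log2 ratio of 1.35 over the 48 axoneme members, with 33 called higher and 5 called lower, where 29% of all genes were called higher and 26.2% lower. Hippocampus over anterior cortex had a median of 0.88, with 30 called higher and 0 lower (24% and 24.1% of all genes). Amygdala over anterior cortex had a median of 0.77 with 25 higher and 0 lower (16% and 17.7% of all genes), and amygdala over cerebellum 1.13 with 27 higher and 4 lower (31% and 28.6%). Hippocampus over amygdala stood at 0.13, with 5 higher and 3 lower (13.9% and 15.1%). Anterior cortex over cerebellum stood at 0.16, with 9 higher and 7 lower (31% and 29.5%). Without the choroid-rich libraries the calls of hippocampus over cerebellum were 27 higher and 5 lower, where 4367 and 3919 of all 16683 genes were. Those of hippocampus over anterior cortex were 25 higher and 1 lower, where 3652 and 3752 genes were.

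Single genes held the steepest gradients, shown in the plot of sham levels by region. Dnah9, an outer-arm dynein heavy chain whose gene the tables place on chromosome 10 at 52351192 to 52710862 on the minus strand (positions throughout are those of the tables, whose build was not given), averaged 134 ± 33.6 CPM in hippocampus, 70.4 ± 15.2 in amygdala, 20.3 ± 9.19 in anterior cortex and 9.90 ± 1.42 in cerebellum (SD, n = 5 each). All 6 pairs of regions were called (edgeR adjusted p from 9.10e-17 to 2.25e-04). Rsph10b, of the radial spoke head (chromosome 12, 12665194 to 12712742), followed the same order at 53.0 ± 15.7, 20.6 ± 4.72, 4.75 ± 2.01 and 2.83 ± 1.39 CPM, and its last step had an adjusted p of 0.045. Dnah11, another outer-arm heavy chain (chromosome 6, 145785275 to 146099053), ran the other way. It averaged 87.5 ± 13.8 CPM in cerebellum, 11.2 ± 4.47 in anterior cortex, 11 ± 3.6 in amygdala and 8.53 ± 6.04 in hippocampus, and the 3 forebrain regions did not differ beyond their spread. The cerebellum over any forebrain region was called (adjusted p at most 1.16e-08).

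**Figure D1:**
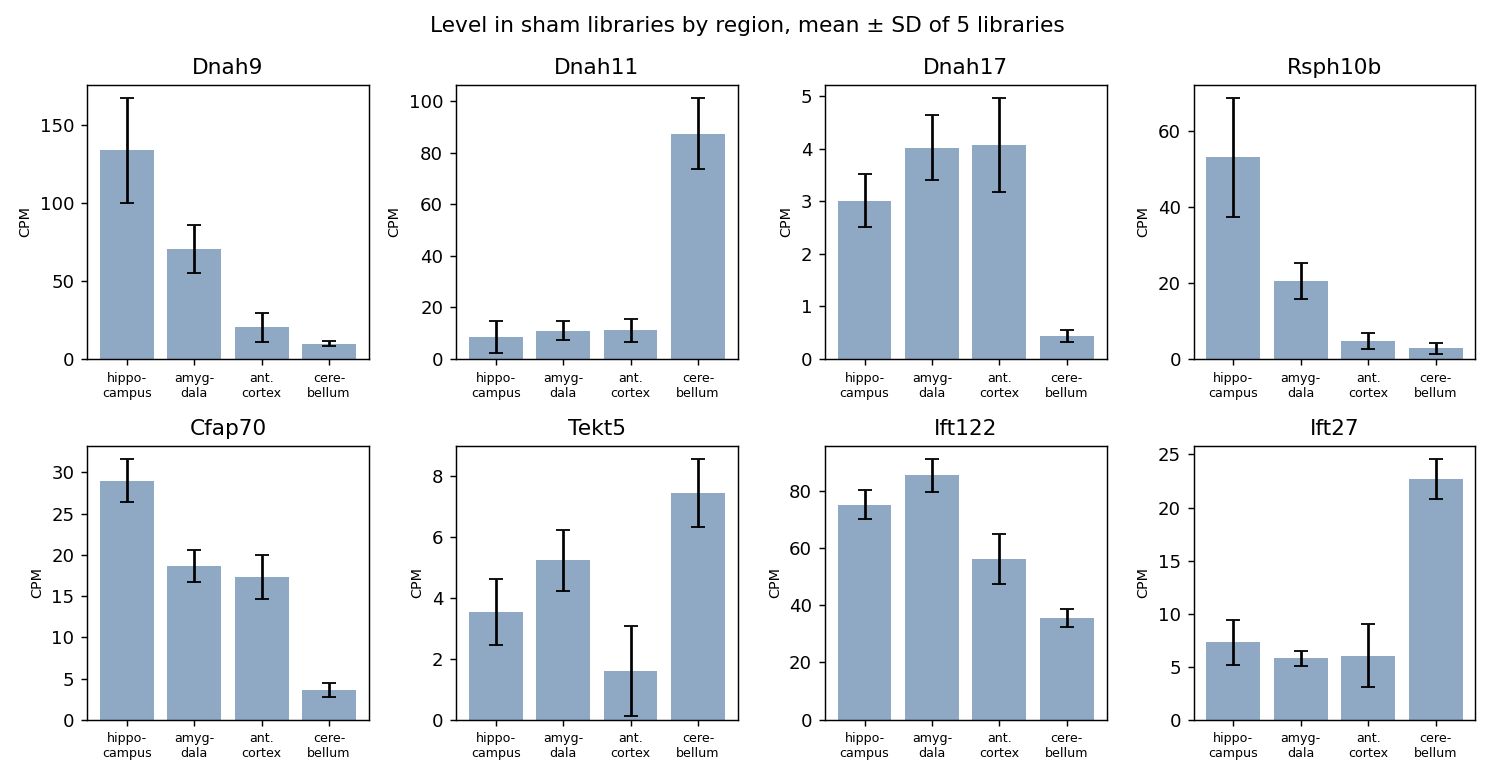
CPM of 8 members in sham libraries of hippocampus, amygdala, anterior cortex and cerebellum; bars are means and lines the SD of 5 libraries. Dnah9, Rsph10b and Cfap70 are highest in the hippocampus, Ift122 in the amygdala, and Dnah11 and Ift27 stand highest in the cerebellum, where Dnah17 is lowest.

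Other members had orders of their own. Dnah17, also an outer-arm heavy chain, averaged 4.08 ± 0.89 CPM in anterior cortex, 4.02 ± 0.62 in amygdala, 3.02 ± 0.50 in hippocampus and 0.43 ± 0.11 in cerebellum, and only the cerebellum was called apart from the rest. Cfap70, an axonemal protein tied to the outer arms, averaged 29.0 ± 2.64 CPM in hippocampus, 18.6 ± 1.96 in amygdala, 17.4 ± 2.67 in anterior cortex and 3.58 ± 0.85 in cerebellum, and amygdala and cortex did not differ beyond their spread (adjusted p = 0.59). Among transport genes, Ift122 of the IFT-A complex averaged 85.3 ± 5.83 CPM in amygdala, 75.1 ± 5.02 in hippocampus, 56.2 ± 8.76 in cortex and 35.6 ± 3.16 in cerebellum. Its upper pair was not told apart (adjusted p = 0.099). Ift27, a small GTPase of IFT-B, averaged 22.7 ± 1.89 CPM in cerebellum against 7.29 ± 2.10, 6.02 ± 2.97 and 5.79 ± 0.71 CPM in hippocampus, cortex and amygdala, which did not differ from each other.

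Compared per length over all libraries, Cfap36, which binds the ciliary GTPase Arl3, was the most abundant member at 63.1 CPM per kilobase. Ift20 and Ift46, both of IFT-B, stood at 31.5 and 22.2, and Cfap298, a factor for assembling dynein arms, at 30.02. Dnah9 led the heavy chains at 4.47, ahead of Dnah11 at 2.34. Rsph9 and Rsph10b reached 9.71 and 5.42, Tekt1 and Tekt5 reached 2.91 and 2.68, and the outer-arm intermediate chains Dnai1 and Dnai2 reached 1.29 and 0.37 CPM per kilobase.

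In the hippocampus, blast libraries were higher on average for most axoneme genes, but no member passed the test. Of 60 members tested, 48 had a fold change above 0, where 49% of all 15059 genes did, and the median log2 fold change was 0.20 against -0.004 over all genes. The 47 axoneme members had 41 above 0 and a median of 0.33, and the 13 Ift members 7 above 0 and a median of 0.03. No member and no gene was called (edgeR, 0% of 15059 genes), DESeq2 and limma voom called no member either, and 2 members were higher and 0 lower at an unadjusted p under 0.05, where 0.97% of all genes were higher and 0.916% lower. By DESeq2 and by voom 5 were higher at that level, where 175 and 172 of 15059 genes were. With 1 library left out that count was lowest at 0, without blast library Hip_8, sham library Hip_13 or sham library Hip_33. It was highest at 16 without sham library Hip_11, where 494 of all 15181 genes were higher at that level. It was 6 without blast library Hip_88, 4 without blast library Hip_22 or sham library Hip_15, and 3 without blast library Hip_4 or sham library Hip_14, while 1 was left without blast library Hip_666. Without blast library Hip_8 the members above 0 numbered 38 and the median was 0.13. With 1 surrogate variable in the fit 36 were above 0, with a median of 0.06 and 1 member higher at that level. In 1 model of all 40 libraries 8 of 61 members were higher, where 357 of 16378 genes were.

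Among the motors, 9 of 10 heavy chains were above 0, with a median log2 fold change of 0.50. Their summed level was 230, 242, 268, 261 and 210.0 CPM in blast libraries Hip_22, Hip_4, Hip_666, Hip_8 and Hip_88, against 252, 209, 117, 232 and 212 CPM in sham libraries Hip_11, Hip_13, Hip_14, Hip_15 and Hip_33. The groups overlapped, and sham library Hip_14 lay below all the rest. That library was low in long genes in general, with a median log2 CPM of -0.67 relative to the region mean over all tested genes of 10000 bases or more, and the part of gene length in the result was not tested. Dnah12, an inner-arm heavy chain, stood at 23.8, 27.2, 38.9, 44.3 and 21.6 CPM in those blast libraries, against 28.8, 23.2, 13.9, 27.4 and 11.54 CPM in those sham libraries. The choroid-rich libraries Hip_666, Hip_8 and Hip_11 held the 3 highest values, and the fold change was 0.57 ± 0.28 (SE; edgeR adjusted p = 0.998). Dnai2 stood at 1.74, 1.57, 2.71, 4.53 and 2.17 CPM in blast libraries, against 2.71, 1.32, 1.42, 0.73 and 0.81 CPM in sham libraries. Its groups overlapped through sham library Hip_11, and its fold change was 0.87 ± 0.40 (adjusted p = 0.998). Dnah9, the most abundant heavy chain here, differed least, with 138 ± 15 CPM in blast and 131 ± 33.2 CPM in sham libraries (0.07 ± 0.17). All 5 tested radial spoke genes and all 5 tektins were above 0, with medians of 0.41 and 0.23. Rsph9, of the spoke head, averaged 14.6 ± 8.49 CPM in blast and 10.8 ± 3.88 CPM in sham libraries (0.43 ± 0.37), and Tekt1 averaged 7.24 ± 3.80 CPM in blast and 5.07 ± 2.63 CPM in sham libraries (0.52 ± 0.43). Both differences were within about the spread of the libraries. In the 7 libraries that were not choroid-rich, the medians were 0.46 for the heavy chains, -0.06 for the spoke genes and 0.06 for the tektins, with 9 of 10, 2 of 5 and 3 of 5 above 0. These 7 still included sham library Hip_14, the one low in long genes. The fold changes then stood at 0.35 for Dnah12, 0.76 for Dnai2, -0.11 for Rsph9 and 0.16 for Tekt1 (adjusted p = 1.00 for each).

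The Cfap genes, 20 of 25 above 0 with a median of 0.28, held the 2 members with the smallest p, Cfap206 and Cfap43. Cfap206, a protein of the radial spoke base and the basal body (chromosome 5, 50148658 to 50193571, minus strand), stood at 6.25, 5.63, 2.03, 7.63 and 4.07 CPM in blast libraries Hip_22, Hip_4, Hip_666, Hip_8 and Hip_88, against 2.71, 2.40, 4.05, 3.28 and 2.02 CPM in sham libraries Hip_11, Hip_13, Hip_14, Hip_15 and Hip_33. Blast library Hip_666 lay among the sham values, and the other 4 blast libraries were above all of them. The means were 5.12 ± 2.15 CPM in blast and 2.89 ± 0.80 CPM in sham libraries (SD, n = 5 each), with a fold change of 0.82 ± 0.33 (edgeR adjusted p = 0.998). Cfap43, which ties dynein to the doublets (chromosome 1, 267511523 to 267598639, minus strand), stood at 14.6, 15.2, 18.3, 31.2 and 13.97 CPM in blast libraries, against 17.2, 10.4, 8.42, 16.2 and 6.94 CPM in sham libraries. Blast library Hip_8 was far above the others, and sham libraries Hip_11 and Hip_15 lay among the blast values (0.66 ± 0.29, adjusted p = 0.998). Cfap70 had a smaller difference, with 32.5 ± 2.75 CPM in blast and 28.5 ± 2.59 CPM in sham libraries (0.19 ± 0.09, adjusted p = 0.998). In the 7 libraries that were not choroid-rich, 15 of the 25 Cfap genes were above 0 with a median of 0.14, and the fold changes were 0.86 for Cfap206, 0.48 for Cfap43 and 0.14 for Cfap70.

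The transport genes of the hippocampus had a median fold change near 0, and sham library Hip_14 held the highest sham values of Ift20, Ift27 and Ift46. Ift27 averaged 9.48 ± 2.12 CPM in blast and 7.14 ± 2.0 CPM in sham libraries (0.40 ± 0.21, edgeR adjusted p = 0.998). Ift20 stood at 25.8, 31.4, 29.9, 32.2 and 31.1 CPM in blast libraries, against 31.5, 31.7, 51.7, 25.1 and 29.9 CPM in sham libraries. Its fold change of -0.18 ± 0.17 was 0.03 without sham library Hip_14, and that of Ift46 was 0.01 in place of -0.10. Ift74, a tubulin-binding IFT-B protein, averaged 14.9 ± 1.81 CPM in blast and 16.2 ± 1.31 CPM in sham libraries (-0.12 ± 0.11). When the choroid-rich libraries were left out, 4 of 13 transport genes were above 0 with a median of -0.07, and Ift27 stood at 0.15, Ift20 at -0.23, Ift46 at -0.20 and Ift74 at -0.16.

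**Figure D2:**
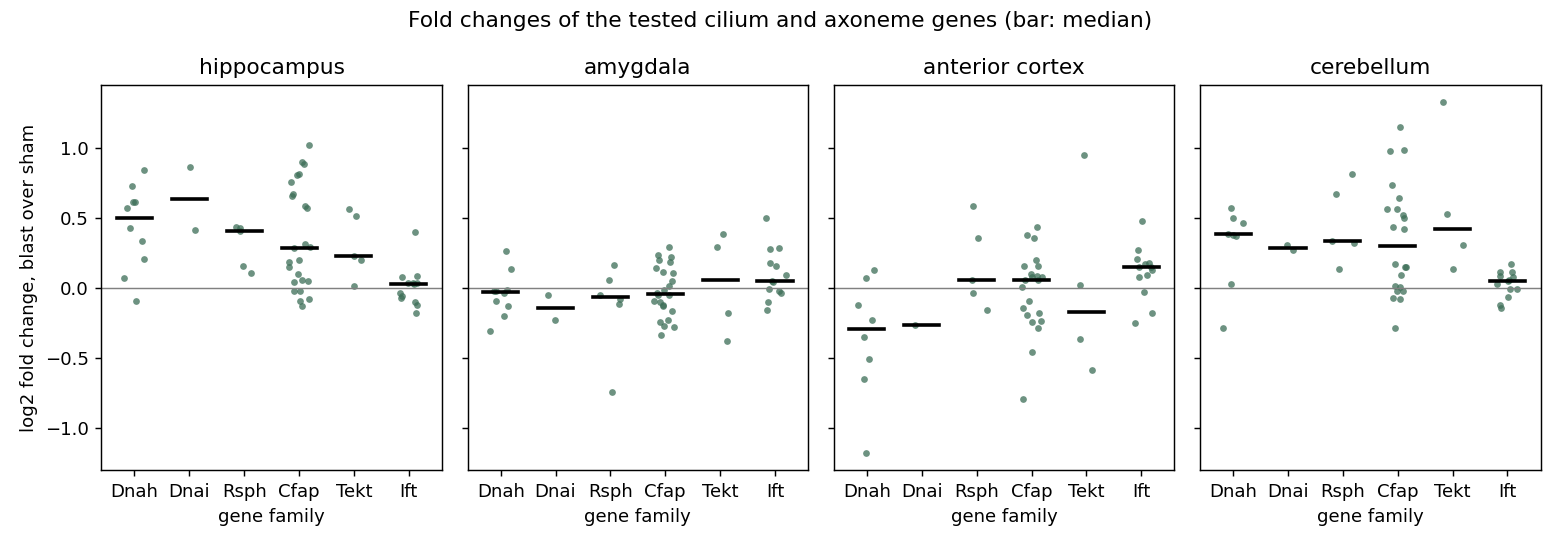
Log2 fold change of blast over sham (vertical axis) of each tested member by gene family and region; black bars are family medians. In hippocampus and cerebellum the 5 axoneme families have medians above 0 while the Ift medians are 0.03 and 0.05; in the anterior cortex the Dnah median is -0.29.

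The choroid plexus list moved with the axoneme genes of the hippocampus. All 19 tested markers had a fold change above 0 (median 1.53, 0 called), and the summed level of the 21 kept markers ran from 93.5 to 9859 CPM in blast and from 51.5 to 5883 CPM in sham libraries, with no kept marker at 0 in all libraries. The 3 choroid-rich libraries exceeded all 7 others for 22 of 47 axoneme members and 1 of 13 Ift members, against 5.96% of all genes, and the median ratio of their mean to that of the other 7 was 1.57 for axoneme and 1.1 for Ift members. It was highest for Cfap300, a dynein arm assembly factor, at 26.8 CPM in the choroid-rich and 6.54 CPM in the other libraries. For Dnah9 it was 135 and 134 CPM, and for Cfap206 4.12 and 3.96 CPM. Without these 3 libraries, 35 of 60 members were above 0 with a median log2 fold change of 0.09, and with the choroid score as a covariate 38 of 60 with a median of 0.07. Ependymal markers outside the member families were above 0 for 17 of 19 and summed to 1949 to 2783 CPM in blast and 1766 to 2487 CPM in sham libraries. As drawn up, that list shared Dynlrb2 and Ak7 with the dynein chains of other names below, and Myb with the ciliogenesis factors. Markers of leptomeninges were above 0 for 16 of 16, and their sum ran from 208 to 1305 CPM in blast and from 160 to 960.0 CPM in sham libraries. The part of choroid plexus and meninges in the result was not tested further.

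**Figure D3:**
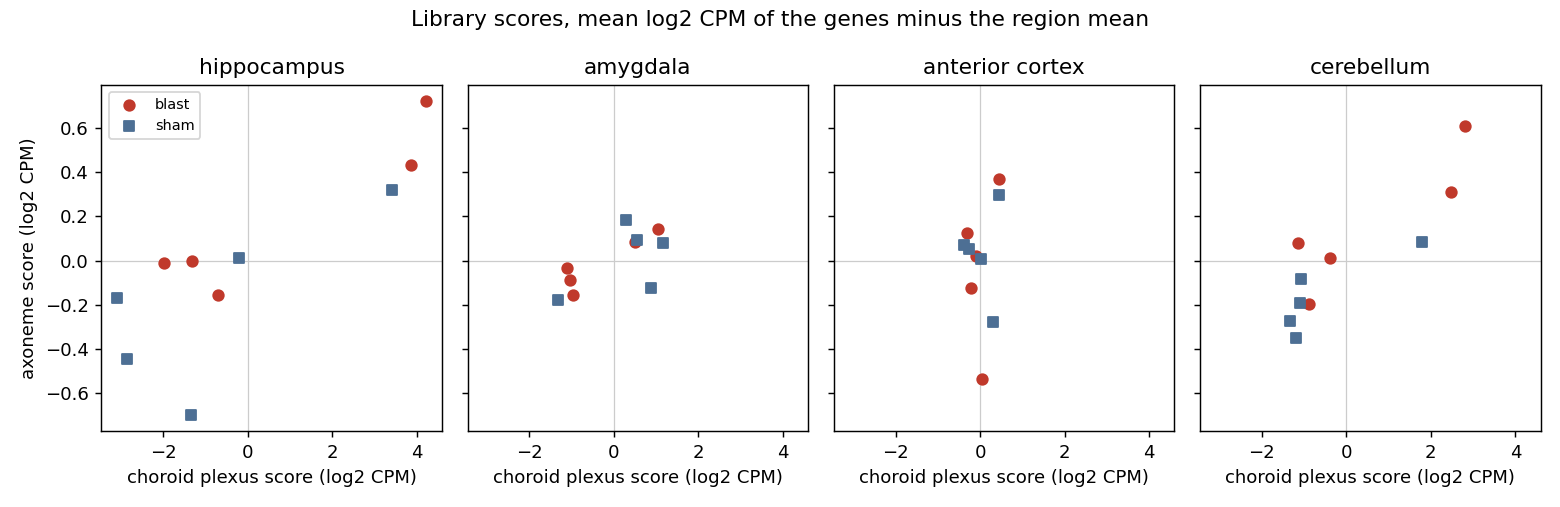
Axoneme score against choroid plexus score of each library by region, both as mean log2 CPM minus the region mean; red circles are blast and blue squares sham libraries. The 3 libraries at the right of the hippocampus and cerebellum panels are the choroid-rich ones, 2 blast and 1 sham in each. They hold the highest axoneme scores of both regions, although sham library Cer_33 (0.083) is barely above blast library Cer_4 (0.079).

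In the cerebellum, 43 of 54 members tested were above 0, against 51.1% of 14769 genes, with a median log2 fold change of 0.17 against 0.002 over all genes. No member and no gene was called by edgeR (0%), and no member by DESeq2 or limma voom. At an unadjusted p under 0.05, 13 members were higher and 1 lower (13 and 1 by DESeq2, 12 and 1 by voom), where 2.81% of all genes were higher and 1.81% lower. The 13 were 8 Cfap, 2 Dnah, 2 Tekt and 1 Rsph member. The axoneme members had 35 of 41 above 0 and a median of 0.37, and the Ift members 8 of 13 and 0.05. The count of 13 ranged from 7 without blast library Cer_22 to 17 without sham library Cer_33, where 319 of 14902 and 527 of 14895 genes were higher. It was 8 without blast library Cer_8 or sham library Cer_14. It was 6 with 0 lower in 1 model of all 40 libraries, where 241 of 16378 genes were higher and 101 lower. With 1 surrogate variable in the fit it was 6 with 1 lower, where 319 of 14769 genes were higher and 199 lower.

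Among cerebellar motor genes, Dnah9 stood at 15.2, 14.2, 10.5, 16 and 14.4 CPM in blast libraries Cer_22, Cer_4, Cer_666, Cer_8 and Cer_88, against 10.6, 10.7, 11.3, 8.43 and 12.6 CPM in sham libraries Cer_11, Cer_13, Cer_14, Cer_15 and Cer_33. Only blast library Cer_666 lay among the sham values (0.39 ± 0.13, edgeR adjusted p = 0.96). Dnah11, the heavy chain that prevails in this region, averaged 97.0 ± 8.28 CPM in blast and 94.9 ± 14.3 CPM in sham libraries (0.03 ± 0.09). Dnah17 had too few counts to be tested, at 0.65 to 1.34 CPM in blast and 0.34 to 0.64 CPM in sham libraries. Dnah5, of the outer arm, averaged 4.31 ± 0.98 CPM in blast and 5.24 ± 1.67 CPM in sham libraries (-0.29 ± 0.22). Without the choroid-rich libraries, the fold change of Dnah9 was 0.34 and that of Dnah5 was -0.51, and the heavy chains had 5 of 8 above 0 with a median of 0.30.

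The smallest p-values belonged to Cfap genes. Cfap65, needed in sperm flagella (chromosome 9, 82163075 to 82195722, minus strand), stood at 9.35, 3.29, 2.25, 6.15 and 4.2 CPM in blast libraries, against 1.44, 2.87, 2.56, 1.42 and 3.07 CPM in sham libraries (1.15 ± 0.36, edgeR adjusted p = 0.96). Cfap44, partner of Cfap43 (chromosome 11, 61162628 to 61234944, minus strand), stood at 8.70, 4.47, 2.74, 7.68 and 4.14 CPM, against 2.34, 2.40, 2.93, 1.91 and 4.52 CPM (0.98 ± 0.32, adjusted p = 0.96). For both, blast libraries Cer_22 and Cer_8 were highest. Only blast library Cer_666 lay among the sham values for Cfap65, whereas sham library Cer_33 exceeded blast libraries Cer_4, Cer_666 and Cer_88 for Cfap44. Cfap99 was the single tested member whose groups did not overlap, as was the case for 0.42% of all genes. It stood at 11.3, 7.89, 8.13, 8.32 and 8.47 CPM in blast libraries, against 7.63, 7.27, 5.78, 5.45 and 6.66 CPM in sham libraries (0.42 ± 0.14, adjusted p = 0.96). When the choroid-rich libraries were left out, the fold changes were 0.65 for Cfap65, 0.66 for Cfap44 and 0.32 for Cfap99, and 16 of 22 Cfap genes were above 0 with a median of 0.08.

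Cfap161, a microtubule inner protein, averaged 1.40 ± 0.38 CPM in blast and 0.69 ± 0.31 CPM in sham libraries of the cerebellum (0.99 ± 0.33, edgeR adjusted p = 0.96). Cfap70 averaged 5.61 ± 0.61 CPM in blast and 3.9 ± 0.94 CPM in sham libraries (0.53 ± 0.18). Tekt2, a tektin of the doublet lumen, averaged 1.39 ± 0.85 CPM in blast and 0.54 ± 0.19 CPM in sham libraries, although blast library Cer_666 held the lowest value of all at 0.24 CPM (1.33 ± 0.47). All 4 tested tektins were above 0, Tekt1 with 3.01 ± 0.85 CPM in blast and 2.08 ± 0.26 CPM in sham libraries (0.53 ± 0.21), and so were all 5 tested spoke genes. Rsph10b averaged 5.41 ± 2.74 CPM in blast and 3.08 ± 1.53 CPM in sham libraries (0.82 ± 0.38). Its largest values came from choroid-rich libraries, whose mean was 2.54 times that of the other libraries. The single lower member was Cfap53, also an inner protein, at 6.42, 6.05, 6.20, 5.83 and 4.66 CPM in blast libraries, against 7.15, 6.41, 7.24, 7.15 and 7.60 CPM in sham libraries. Its groups touched at blast library Cer_22 and sham library Cer_13 (-0.29 ± 0.12, adjusted p = 0.999). Among transport genes, Ift27 averaged 22.4 ± 1.92 CPM in blast and 24.7 ± 2.17 CPM in sham libraries (-0.14 ± 0.08). Without the choroid-rich libraries, the fold changes were 0.58 for Cfap161, 0.52 for Cfap70, 0.60 for Tekt2, 0.32 for Tekt1, 0.47 for Rsph10b, -0.31 for Cfap53 and -0.14 for Ift27. The 4 tested tektins and 4 tested spoke genes were all above 0 then, with medians of 0.22 and 0.31, and the transport genes had 9 of 13 above 0 with a median of 0.05.

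Choroid plexus and meningeal markers moved with these genes too. All 16 tested choroid markers were above 0 (median 1.61, 0 called), summing to 92.7 to 2919 CPM in blast and 77.0 to 1330.0 CPM in sham libraries. All 16 meningeal markers were above 0 as well (median 0.80, 9 at p under 0.05), summing to 664 to 1240.0 CPM in blast and 243 to 852 CPM in sham libraries. Ependymal markers were above 0 for 14 of 17, 6 of them at p under 0.05, and summed to 1044 to 1263 CPM in blast and 1042 to 1175 CPM in sham libraries. No kept marker of these lists was at 0 throughout. The 3 choroid-rich libraries exceeded the other 7 for 9 of 41 axoneme members and 0 of 13 Ift members, against 2.01% of all genes, with median ratios of 1.32 and 1.00. Without them 39 of 53 members were above 0 and the median was 0.09. At an unadjusted p under 0.05, 3 members were higher then, where 312 of 14915 genes were. With the choroid score as a covariate 40 of 54 were above 0 with a median of 0.10. At that level 6 members were higher, where 323 of 14769 genes were. The part of the meninges was not tested.

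**Figure D4:**
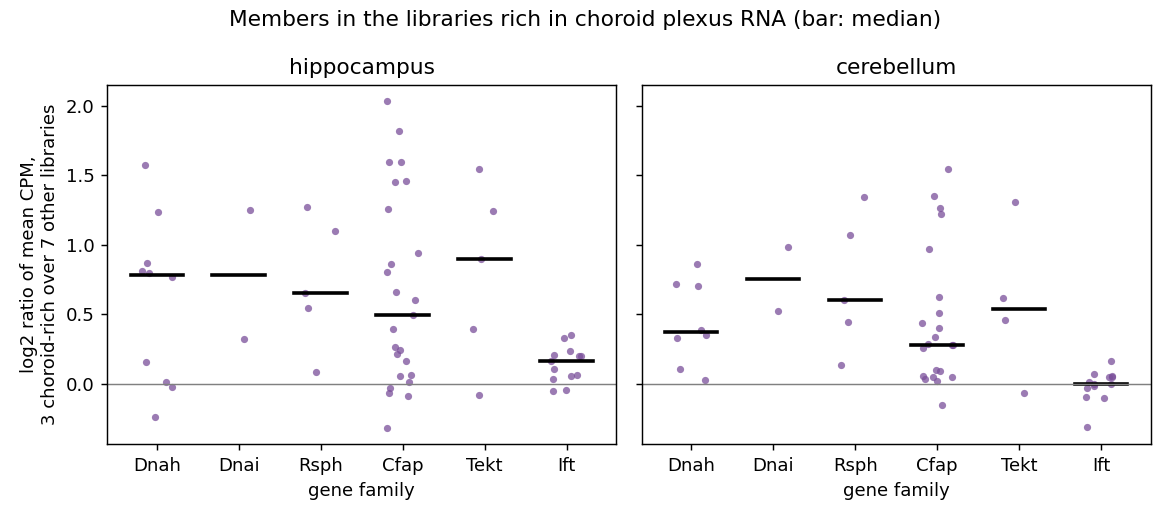
Log2 ratio of mean CPM in the 3 choroid-rich libraries over that in the 7 other libraries for each tested member, by family, in hippocampus and cerebellum; black bars are medians. The axoneme families lie mostly above 0, and the Ift genes lie around 0.

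In the amygdala, members showed no common direction. Of 59 tested, 24 were above 0 against 49.7% of 15280 genes, with a median log2 fold change of -0.02 against -0.001 over all genes. No member and no gene was called by edgeR (0%), and no member by DESeq2 or limma voom. At an unadjusted p under 0.05, 4 members were higher and 0 lower (3 and 0 by DESeq2, 4 and 0 by voom), where 4.22% of all genes were higher and 4.45% lower. The count of 4 was 6 without sham library Amy_33, where 711 of 15396 genes were higher. It was 2 without blast libraries Amy_666 or Amy_8 or sham library Amy_14, each left out alone. It was 5 with the choroid score as a covariate, where 854 of 15280 genes were higher. In that fit 30 of 59 members were above 0 with a median of 0.001. In 1 model of all 40 libraries the count was 1, where 168 of 16378 genes were higher. Of the 4 members in the main fit, 3 were transport genes. Ift46, the IFT-B subunit that carries outer-arm dynein cargo, stood at 35.8, 37.6, 33.3, 34.6 and 37.8 CPM in blast libraries Amy_22, Amy_4, Amy_666, Amy_8 and Amy_88, against 33.8, 31.5, 31.6, 29.1 and 32.1 CPM in sham libraries Amy_11, unnumbered, Amy_14, Amy_15 and Amy_33. The groups overlapped only between blast library Amy_666 and sham library Amy_11 (0.18 ± 0.06, edgeR adjusted p = 0.51).

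Ift88, an IFT-B protein needed for all cilia, averaged 21.3 ± 3.02 CPM in blast and 17.5 ± 1.75 CPM in sham libraries of the amygdala (0.29 ± 0.11, edgeR adjusted p = 0.52). Ift43, of IFT-A, averaged 7.03 ± 1.27 CPM in blast and 4.95 ± 1.23 CPM in sham libraries (0.50 ± 0.20). Cfap157, a basal body protein, was the only member with separate groups, as were 0.785% of all genes. It stood at 6.69, 8.2, 6.77, 6.59 and 6.77 CPM in blast libraries, against 6.57, 5.0, 5.83, 5.21 and 6.01 CPM in sham libraries (0.29 ± 0.13, adjusted p = 0.57). Ift122 averaged 94.6 ± 9.86 CPM in blast and 84.8 ± 5.56 CPM in sham libraries (0.16 ± 0.08), and Tekt2 3.33 ± 0.60 CPM in blast and 2.54 ± 0.41 CPM in sham libraries (0.39 ± 0.20). Of the other families, 2 of 10 Dnah, 0 of 2 Dnai, 2 of 6 Rsph and 10 of 24 Cfap genes were above 0. On the lower side, Cfap99 averaged 6.60 ± 0.60 CPM in blast and 7.96 ± 1.54 CPM in sham libraries (-0.27 ± 0.15). Cfap126, which helps position basal bodies, averaged 8.30 ± 1.05 CPM in blast and 10.1 ± 2.50 CPM in sham libraries (-0.28 ± 0.17). The choroid list ran lower in blast here, with 2 of 20 markers above 0 and sums of 109 to 651 CPM in blast and 133 to 642 CPM in sham libraries.

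In the anterior cortex, 30 of 53 members tested were above 0 against 50% of 14918 genes, and the median log2 fold change was 0.06 against -7.5e-05 over all genes. No member and no gene was called by edgeR (0%), no member by DESeq2 or limma voom, and 0 members had an unadjusted p under 0.05, where 1.88% of all genes were higher and 2.43% lower. DESeq2 had 0 higher and 1 lower and voom had 0 at that level. Leaving out 1 library gave at most 2 higher, without sham library AC_33, where 481 of 15087 genes were. It gave at most 3 lower, without sham library AC_14, where 919 of 15062 genes were. With 1 surrogate variable in the fit, 24 of 53 members were above 0 with a median of -0.05. In 1 model of all 40 libraries 35 of 61 were above 0. There 3 members were higher and 3 lower at an unadjusted p under 0.05, where 1439 and 1484 of all 16378 genes were. Of the heavy chains 2 of 8 were above 0, with a median of -0.29, and of the transport genes 10 of 13, with a median of 0.15. Long genes in general stood unevenly over these libraries, and all heavy chains have 10410 bases or more. Over all tested genes of 10000 bases or more, the median log2 CPM minus the region mean was 0.43 in blast library AC_8 and -0.26 to -0.22 in the other 4 blast libraries, against 0.69, 0.32, 0.13, -0.32 and -0.26 in sham libraries AC_15, AC_11, AC_13, AC_14 and AC_33. The part of gene length in these values was not tested. Dnah1, an inner-arm heavy chain (chromosome 16, 7345978 to 7408265, minus strand), stood at 1.59, 3.27, 0.80, 1.06 and 2.14 CPM in blast libraries AC_22, AC_4, AC_666, AC_8 and AC_88, against 3.91, 1.90, 1.21, 9.82 and 3.44 CPM in sham libraries AC_11, AC_13, AC_14, AC_15 and AC_33. Sham library AC_15, the highest in long genes in general, was far above the rest, and the groups overlapped (-1.18 ± 0.55, edgeR adjusted p = 0.80). Rsph10b stood at 5.49, 5.91, 5.56, 8.57 and 7.88 CPM in blast libraries, against 2.29, 5.46, 4.83, 2.82 and 6.72 CPM in sham libraries. Only sham library AC_33 lay among the blast values (0.58 ± 0.30, adjusted p = 0.80). Ift46 averaged 30.6 ± 2.56 CPM in blast and 26.5 ± 2.39 CPM in sham libraries (0.21 ± 0.12). Dnah2, of the inner arm, averaged 6.18 ± 0.43 CPM in blast and 7.91 ± 2.06 CPM in sham libraries (-0.35 ± 0.21), and Ift43 5.45 ± 2.02 CPM in blast and 3.91 ± 1.26 CPM in sham libraries (0.48 ± 0.32). Without blast library AC_8 and sham libraries AC_11, AC_13 and AC_15, in which few genes were detected, 31 of 56 members were above 0 with a median of 0.01. The heavy chains then had 3 of 9 above 0 with a median of -0.03, and Dnah1 stood at -0.25 ± 0.58. Choroid markers were scarce here, summing to 57.2 to 91.8 CPM in blast and 57.5 to 99.1 CPM in sham libraries.

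**Figure D5:**
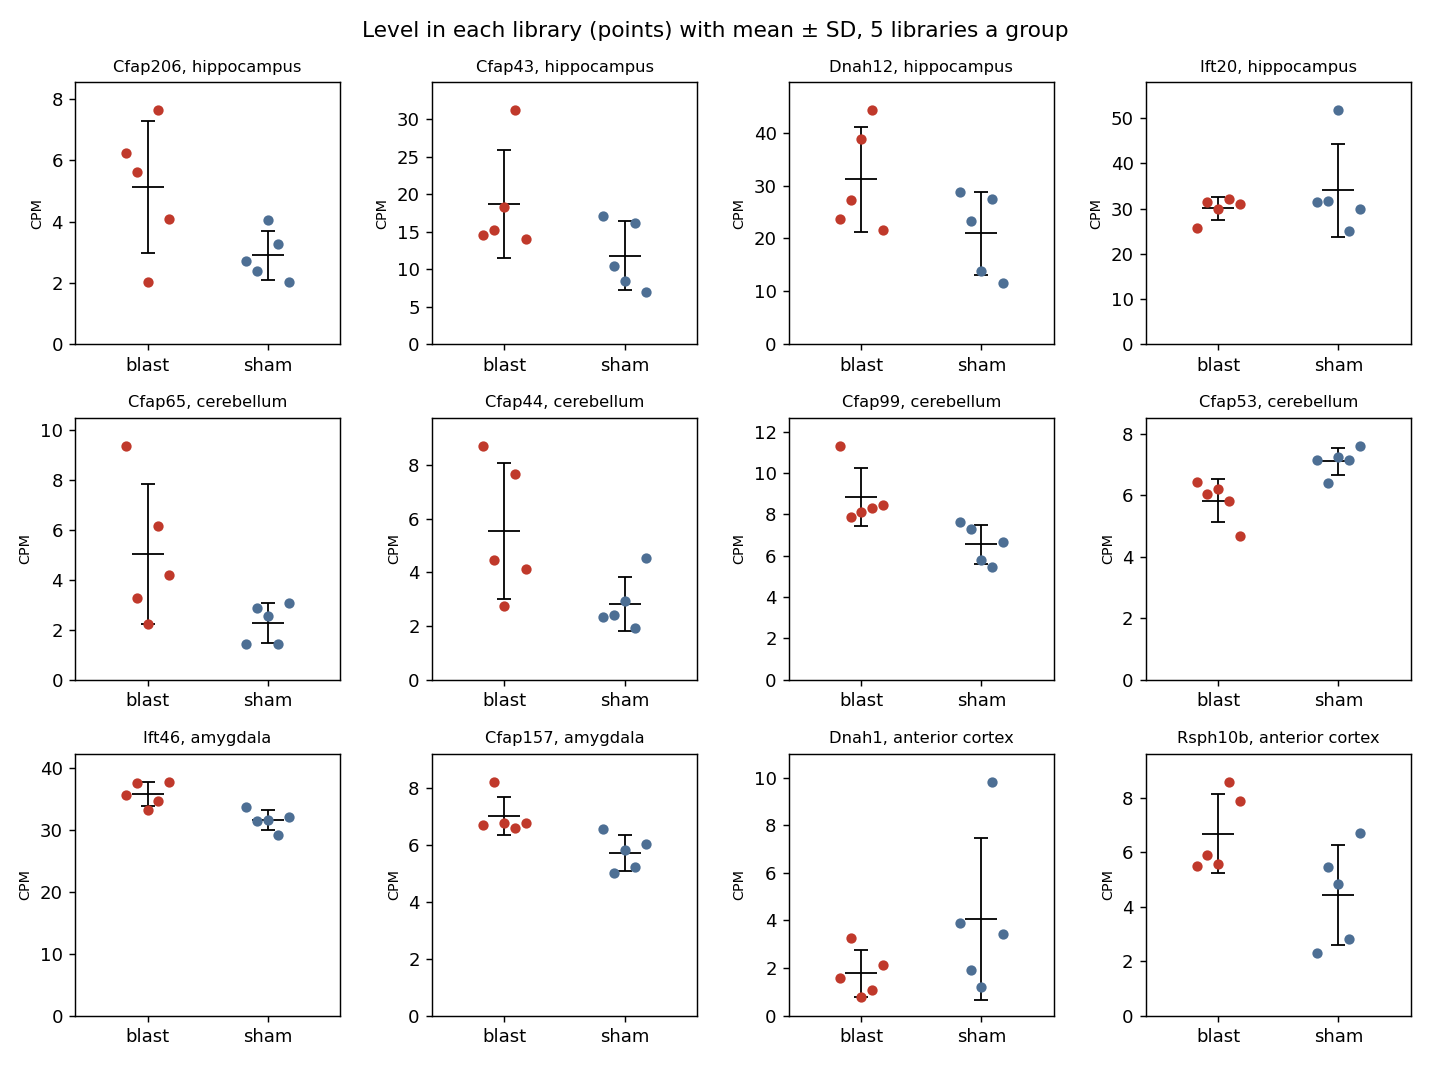
CPM of 12 comparisons of a member in a region, with 1 point per library, blast left and sham right, and the mean ± SD of 5 libraries. Only Cfap99 in the cerebellum and Cfap157 in the amygdala have blast points that are all above the sham points, and single libraries stand out for Cfap43 (blast, 31.2 CPM), Ift20 (sham, 51.7 CPM) and Dnah1 (sham, 9.82 CPM).

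The blast effect was not shown to differ between regions for any member. Of 61 members, 0 were called by the edgeR quasi-likelihood test for an interaction of region and treatment (0% of 16378 genes), and 4 had an unadjusted p under 0.05 where 4.76% of genes did. The smallest p was that of Dnah17 (adjusted p = 1.00). Its log2 fold changes in the model of all 40 libraries were 0.19 ± 0.21 in hippocampus, 0.27 ± 0.21 in amygdala, -0.24 ± 0.21 in anterior cortex and 0.98 ± 0.26 in cerebellum. Its counts in the cerebellum were too few for the test of that region alone, where it averaged 0.95 ± 0.30 CPM in blast and 0.47 ± 0.12 CPM in sham libraries, with all blast above all sham values. In the tests by region, Dnah1 had 0.62 ± 0.40 in hippocampus, -0.09 ± 0.24 in amygdala, -1.18 ± 0.55 in cortex and 0.37 ± 0.17 in cerebellum. Cfap44 had 1.03 ± 0.55, -0.34 ± 0.28, -0.80 ± 0.68 and 0.98 ± 0.32 in the same order.

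Averaged over the regions by limma voom, 51 of 61 members were above 0 with a median log2 change of 0.15, and 0 were called, where 0.00611% of genes were. At an unadjusted p under 0.05 there were 11, where 8.36% of genes were. Without the 6 choroid-rich libraries there were 5, where 912 of 16683 genes were, and 45 members were above 0 with a median of 0.09. Ift74 had the smallest p, at -0.17 ± 0.06 (limma adjusted p = 0.39), and was lower in blast on average in each region. It was lower by 0.12 in hippocampus, 0.16 in amygdala, 0.25 in cortex and 0.12 in cerebellum on the log2 scale. The cortex value leaned on the libraries in which few genes were detected. Ift74 stood at 14.77 to 15.56 CPM in sham libraries AC_11, AC_13 and AC_15 and at 13.44 CPM in blast library AC_8. Sham libraries AC_14 and AC_33, at 10.74 and 11.44 CPM, lay within the other blast values of 9.64 to 11.85 CPM. Dnai2 stood at 0.74 ± 0.27 (adjusted p = 0.46) and Ift43 at 0.30 ± 0.11 (adjusted p = 0.46).

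Ciliary genes outside these families were read from 6 lists, and 0 members of them were called in any region by edgeR. Of proteins of the central apparatus, ruler and nexin link, 40 of 48 were above 0 in the hippocampus (median 0.36) and 33 of 40 in the cerebellum (0.16), against 19 of 45 in the amygdala and 19 of 37 in the anterior cortex. Dynein chains with other names were above 0 for 9 of 9 in the hippocampus (0.34) and 7 of 8 in the cerebellum (0.27), and factors for dynein assembly and docking for 13 of 18 (0.24) and 10 of 13 (0.10). Genes of the primary cilium and BBSome, the transport coat of cilia, were near 0 with 22 of 45 above 0 in the hippocampus (-0.01) and 27 of 43 in the cerebellum (0.02). Transport partners without an Ift name had 16 of 24 above 0 in the hippocampus (0.06) and 15 of 23 in the cerebellum (0.02). Ciliogenesis factors had 9 of 13 in the hippocampus (0.03) and 7 of 12 in the cerebellum (0.01). The choroid-rich libraries were also high in these lists, as the mean log2 CPM of the central apparatus genes minus the region mean was 0.72, 0.48 and 0.39 in Hip_8, Hip_666 and Hip_11 and 0.58, 0.34 and 0.23 in Cer_22, Cer_8 and Cer_33. Without these libraries, 35 of 48 central apparatus genes were above 0 in the hippocampus (0.21) and 25 of 39 in the cerebellum (0.05). Other dynein chains then had 9 of 9 (0.30) and 7 of 9 (0.29), and assembly and docking factors 10 of 18 (0.04) and 9 of 13 (0.12).

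Within these lists, Mdh1b was the hippocampal gene with the smallest p and separate groups, at 9.66, 8.84, 11.51, 8.91 and 8.40 CPM in blast libraries Hip_22, Hip_4, Hip_666, Hip_8 and Hip_88, against 7.95, 6.05, 5.26, 7.43 and 7.26 CPM in sham libraries Hip_11, Hip_13, Hip_14, Hip_15 and Hip_33 (0.48 ± 0.16, edgeR adjusted p = 0.998), where 0.126% of all genes had all blast above all sham values. Daw1, which loads outer dynein arms onto transport particles, had 0.84 ± 0.31 in the hippocampus and 0.92 ± 0.36 in the amygdala. Dnali1, an inner-arm light chain, had 0.77 ± 0.34 in the hippocampus and 0.53 ± 0.25 in the cerebellum. Tp73, a transcription factor of multiciliated cells, stood at 5.04, 1.31, 1.05, 5.31 and 1.90 CPM in blast cerebellum libraries Cer_22, Cer_4, Cer_666, Cer_8 and Cer_88, against 0.89, 1.00, 1.10, 0.57 and 2.39 CPM in sham libraries Cer_11, Cer_13, Cer_14, Cer_15 and Cer_33. Its 3 highest values were those of the choroid-rich libraries (1.32 ± 0.49). Rfx2 and Rfx3, factors that bind the X-box shown above, had fold changes of 0.30 ± 0.24 and 0.13 ± 0.25 in the hippocampus and 0.15 ± 0.17 and -0.02 ± 0.11 in the cerebellum. In the libraries of each region that were not choroid-rich, the fold change was 0.47 for Mdh1b, 0.88 for Daw1 and 0.32 for Dnali1 in the hippocampus, and 0.46 for Dnali1 and 0.68 for Tp73 in the cerebellum. Mak, a kinase that limits ciliary length, was -1.41 ± 0.54 in the amygdala (adjusted p = 0.52) and 1.35 ± 0.86 in the hippocampus, where it was 0.08 without the choroid-rich libraries.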

How the data were processed

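RNA-seq libraries of 4 rat brain regions (5 blast and 5 sham each) were analysed from the authors' tables. Libraries were made with the NEBNext Ultra kit from total RNA, per the labels' protocols, and CASAVA is named in the submitters' processing notes. Aligner, counter, strandedness and build: not given in the sources used here, so overlapping genes and the near-copies Cfap58 and Cfap58l1 may share reads. The authors' tables hold, per the file headers, unscaled counts, a normalized signal, FPKM, log2 fold changes and p-values for each gene. The deposited signal was not used. The deposited FPKM equalled the count per kilobase and library total, without TMM scaling, within a relative tolerance of 0.001, for 79.7% of hippocampus values, and served as an alternative level. In the authors' deposited table of p-values, 0 members passed an adjusted p under 0.05 in hippocampus, anterior cortex and cerebellum, and no member of the amygdala had an adjusted p.

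Genes were joined by identifier. Counts were filtered with filterByExpr, scaled by TMM and tested per region with edgeR 4.0.16 (two-sided quasi-likelihood F tests), with p-values adjusted by Benjamini-Hochberg over all genes tested, and called under 0.05. The filter left 60, 59, 53 and 54 members in hippocampus, amygdala, anterior cortex and cerebellum. Regional levels, the interaction and pairs of sham regions came from 1 edgeR model of 8 group means, and the mean effect from limma 3.58.1 with voom and title number as a random block. Scripts were tested on simulated data. Levels by region come from scaling of all 40 libraries together. Alternatives were DESeq2 1.42.0, voom, other scaling, no filter, 1 surrogate variable, a choroid covariate and left-out libraries; those for the choroid-rich cerebellum and the 6 choroid-rich libraries were chosen after seeing the data. Members, lists and named genes were chosen with earlier results of these data known. Named in each region were the 6 members higher and 3 lower with the smallest p, those with the smallest p in the joint tests, the highest per length in each family and 2 genes of each list. Rfx3 and Hydin were named as well. The text omits some and adds Cfap300, chosen after its values were seen, and gives genes named in 1 comparison in other regions too, also chosen after their values were seen. Totals of 11268097 to 37128383 counts bound counting error. No 2 libraries of a group were duplicates (smallest chi-square per degree of freedom 6.64 over 80 pairs). In the amygdala, 1 sham column is numbered 13 where the title has 12, so that library was assigned to its group only, and its 2 columns of signal and FPKM were not used.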

Additional observations from a re-analysis of the deposited data

Results flagged for a closer look

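In groups of 5 libraries, a single library stood apart from the other 4 by Dixon's test in 9 of 128 groups examined, where chance gives about 1 in 20. In the hippocampus, Cfap43 stood at 31.2 CPM in blast library Hip_8 against 13.97 to 18.3 CPM in the other blast libraries. Sham library Hip_14 of the hippocampus held 3 of the 9, with 51.7 CPM of Ift20 against 25.1 to 31.7 in the other sham libraries, 47.6 CPM of Ift46 against 32.99 to 36.9, and 10.6 CPM of Ift27 against 5.57 to 6.77. In the cerebellum, blast library Cer_22 had 11.3 CPM of Cfap99 against 7.89 to 8.47 and a summed 5.94 CPM of the 2 Dnai genes against 2.50 to 3.33 in the other blast libraries. Sham library Cer_11 of the cerebellum had 8.11 CPM of Dnah5 against 3.97 to 5.12. In the amygdala, blast library Amy_4 had 8.2 CPM of Cfap157 against 6.59 to 6.77, and in the anterior cortex blast library AC_8 had a summed 227 CPM of Cfap genes against 272 to 287.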

How the results depend on the processing

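No member was called in any region under any alternative run. Counts of called genes over the whole table, 0 in each region in the main analysis, were 1 with DESeq2 and 0 to 1 with a library left out in the hippocampus. In the amygdala they were 20 with DESeq2, 1 with 1 surrogate variable and 0 to 2 with a library left out. In the anterior cortex they were 34 in 1 model of all 40 libraries and 2 without the 4 libraries with few genes, and in the cerebellum 5 with DESeq2 and 0 to 1 with a library left out. The causes were not tested. Fold changes in the hippocampus became 0.026 in place of -0.18 for Ift20 and 0.0060 in place of -0.10 for Ift46 without sham library Hip_14. The other 872 values of members, medians and counts under alternatives kept their direction and side of the threshold or moved within the spread. Of 57 pairs of libraries sharing a title number, 19 correlated above 0.1 (median 0.07, range -0.15 to 0.44). Pairs of differing numbers were not compared, so these values cannot show whether libraries of the same number come from the same animal. Blast and sham share no number within a region. With the title number as a replicate block, 0 members were called for the interaction and 52 for the sham levels, beside 0 and 12855 of 16378 genes. With no block 0 members were called for the mean effect, beside 2 of 16378 genes. Members with few counts limit precision, as Dnai2 and Tekt2 lay near 1 CPM in the cerebellum.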

Other observations

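Sham library Hip_14 of the hippocampus was low in long genes. Among all tested genes of 10000 bases or more, log2 CPM minus the region mean had a median of -0.67 in that library and of 0.01 to 0.19 in the other 9. For genes under 2000 bases it was 0.27 in that library. Its 10 heavy chain genes, all of 10410 bases or more, summed to 117 CPM against 209 to 252 CPM in the other sham libraries. Rfx3 stood there at 14.2 CPM against 32.8 to 43.5 CPM in the other sham libraries, and Hydin, a central apparatus protein with a very long transcript, at 3.79 CPM against 8.55 to 34.6 CPM. Without this library, 51 of 61 hippocampus members were above 0, with a median log2 fold change of 0.17.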
